A study of Homo sapiens with 16 samples.

Results

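The group consists of 10 microRNA genes with a described role in fibrosis that were examined for nearby regions whose H3K27ac level changed in LX-2 cells under OGTi, the inhibition of O-GlcNAc transferase by OSMI-1. The 10 genes were MIR29A, MIR29B1, MIR29B2, MIR29C, MIR221, MIR222, MIR21, MIR143, MIR145 and MIR214, out of 1879 microRNA genes annotated in GENCODE release 44. They lie at 6 loci, because 8 of them form 4 pairs whose hairpins are 504 to 1623 bp apart, and both members of a pair share their regions. For each gene, every listed region with at least 1 base within 100 kb of the annotated hairpin was taken, and its place relative to the host transcript's 5′ end was recorded. The genes were selected on the presence or absence of listed regions within 100 kb, with the lists known, so these counts are given as a description, with no test.

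LX-2 is an established line of activated human hepatic stellate cells, a model of the myofibroblastic HSC (MF-HSC). H3K27ac ChIP-seq was made from 4 control and 4 OSMI-1-treated samples (50 µM, 24 h). The other 8 of the 16 samples were inputs and column purified chromatin libraries. Their data were not read here, though the study used input DNA as control when it called the peaks. The controls received no OSMI-1 and shared the line, the serum-containing medium and the timing. The study compared the groups to find regulatory regions whose activity depended on O-GlcNAcylation, and deposited 3507 regions that lost and 3623 regions that gained H3K27ac, at an adjusted p given as 0.15 in the names of the lists and as 0.05 in the methods. The lists hold positions only, without signal, fold change or p-value, so the size of each change and its spread over the 4 samples per group cannot be given, and a stretch that is not listed was either unchanged, not called or not tested.

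MicroRNAs are short RNAs cut from a hairpin in a longer primary transcript, which is often a long noncoding RNA or the pre-mRNA of a host gene. The mature strand binds mainly through its seed, bases 2 to 8, to matching sites in the 3′UTR of target mRNAs and lowers their output. H3K27ac marks active promoters and enhancers, and the promoter of a microRNA can lie many kilobases from its hairpin. In liver fibrosis miR-29 is known as a brake on collagen and other matrix genes, whereas miR-21, miR-221, miR-222 and miR-214 are described as rising with stellate cell activation, and miR-143 and miR-145 as microRNAs of contractile cells under serum response factor.

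The mature sequences show which loci make the same regulator and are given from RefSeq (GRCh38.p14), with the seed in capitals. The miR-29 genes at both loci share 1 seed, held by 3 of the 2370 mature entries, and miR-29b-3p is made from MIR29B1 and MIR29B2 alike.
hsa-miR-29a-3p: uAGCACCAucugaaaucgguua
hsa-miR-29b-3p: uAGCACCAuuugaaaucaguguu
hsa-miR-29c-3p: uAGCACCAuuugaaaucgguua
Of 22 aligned positions, miR-29a-3p and miR-29c-3p had 21 in common, miR-29b-3p and miR-29c-3p 19, and miR-29a-3p and miR-29b-3p 18. MiR-221-3p and miR-222-3p share a seed that no other entry holds, with 11 of 21 positions identical.
hsa-miR-221-3p: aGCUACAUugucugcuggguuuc
hsa-miR-222-3p: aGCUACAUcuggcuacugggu
The remaining members each have a seed of their own among the 10 genes.
hsa-miR-21-5p: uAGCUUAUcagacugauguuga
hsa-miR-143-3p: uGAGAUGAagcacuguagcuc
hsa-miR-145-5p: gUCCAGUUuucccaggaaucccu
hsa-miR-214-3p: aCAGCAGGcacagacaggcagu

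Within 100 kb of the 10 genes there were 42 listed regions, of which 39 had gained and 3 had lost H3K27ac. A gained region lay near 7 members, at 4 loci, beside 26.6% of all microRNA genes. A lost region lay near 4 members, at 2 loci, beside 20.6% of all microRNA genes. The gained regions were spread very unevenly, with 20 at MIR29A/MIR29B1, 16 at MIR221/MIR222, 2 at MIR29B2/MIR29C, 1 at MIR21 and none at MIR143/MIR145 or MIR214. The lost ones comprised 2 at MIR143/MIR145 and 1 at MIR29B2/MIR29C. No hairpin lay inside a listed region, which also held for all but 28 (gained) and 16 (lost) of the 1879 microRNA genes.

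**Figure D1:**
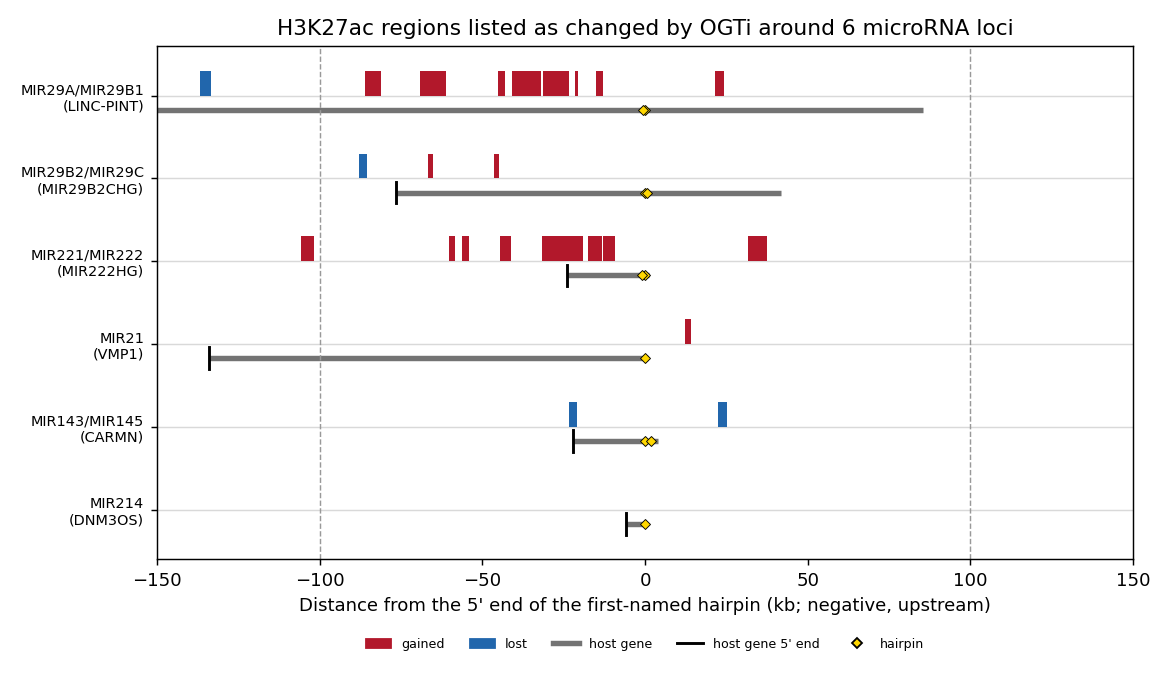
Listed regions around the 6 loci, by distance in kb from the 5′ end of the first-named hairpin in the direction of transcription (negative, upstream; dashed lines, 100 kb). Red bars are gained and blue bars lost regions, grey bars the host gene with its 5′ end as a black tick, and diamonds the hairpins; gained regions crowd upstream of MIR29A/MIR29B1 (20 in the window) and MIR221/MIR222 (16), while MIR143/MIR145 has 2 lost regions and MIR214 none.

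MIR29A and MIR29B1 lie on the minus strand of chromosome 7 (chr7:130876747-130876810 and chr7:130877459-130877539, hg38). Their host is LINC-PINT, a p53-induced long noncoding RNA gene of 319 kb, and LINC00513 runs over the hairpins on the opposite strand. The MIR29A hairpin was intronic in all 11 LINC-PINT transcripts that span it, and the MIR29B1 hairpin was intronic in 11 and exonic in 1 of 12. All 20 gained regions lay inside LINC-PINT, 11 of them touching an annotated exon of some gene and 9 intronic. They ran from chr7:130852402 to chr7:130962816, and 37.9 kb of that span was listed. Of these, 19 lay upstream of MIR29A, from 12.9 to 84.2 kb away, and 1 lay 21.5 kb downstream. The hairpins sat in a gap of 34.4 kb between listed regions.

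Many of the gained regions at this locus touched each other, since they are bins of broader peaks. The 20 formed 8 uninterrupted blocks, the longest of 5 regions and 9.04 kb (chr7:130908815-130917852). That block held the start of a LINC-PINT transcript 36303 bp upstream of MIR29A (chr7:130913113) and that of another 35771 bp upstream of MIR29B1 (chr7:130913310). A separate region, chr7:130940307-130942306, held 3 further start sites, 64714 to 64792 bp upstream of MIR29A. Of the 9 distinct 5′ ends of transcripts spanning MIR29A, 7 lay inside a gained region, as did 8 of the 10 for MIR29B1. The other 2 ends, at chr7:130884417 and chr7:130884418, were 5.3 kb from the nearest one.

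The 5′ end of the LINC-PINT gene itself lies 233 kb upstream of the hairpins, outside the window. A gained region covered it (chr7:131110053-131111374), and 2 more abutted that one 124 and 2124 bp inside the gene, so that all 3 were within 2500 bp of the gene's 5′ end. Between these and the window, 133.5 and 151.0 kb upstream of MIR29A, were 2 lost regions inside LINC-PINT (chr7:131010300-131013548 and chr7:131027802-131028299). The LINC-PINT body thus held regions of both directions, but the lost ones were all further than 100 kb from the hairpins. Both miR-29 genes here were nearer to a gained region (12.9 and 12.1 kb) than to a lost one (133.5 and 132.8 kb).

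The promoter that RefSeq places for a shorter LINC-PINT transcript (chr7:130913261-130913560, minus strand, GRCh38.p14) fell wholly inside the gained region chr7:130911853-130913852. It begins a transcript that spans MIR29B1 and is the only one of the RefSeq LINC-PINT promoters examined that lies within 100 kb of the hairpins. Capitals mark 2 matches to the AP-1 motif TGANTCA, which 7.71% of 35116 RefSeq promoters of 300 bases hold.
LINC-PINT: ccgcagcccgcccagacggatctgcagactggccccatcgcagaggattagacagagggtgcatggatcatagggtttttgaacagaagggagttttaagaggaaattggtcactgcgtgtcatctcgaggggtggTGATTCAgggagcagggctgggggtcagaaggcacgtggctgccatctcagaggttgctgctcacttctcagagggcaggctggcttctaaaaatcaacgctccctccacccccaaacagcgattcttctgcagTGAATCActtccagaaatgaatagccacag
Its GC content was 54.7% with 9 CpG dinucleotides. The other RefSeq LINC-PINT promoters, near the gene's 5′ end, also overlapped gained regions and held a RUNX match or none, but no AP-1 match. A match is a description of the letters and says nothing on binding.

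MIR29B2 and MIR29C lie on the minus strand of chromosome 1 (chr1:207802443-207802523 and chr1:207801852-207801939) in MIR29B2CHG, a long noncoding RNA gene of 118 kb named as their host. Each hairpin was exonic in 1 and intronic in 4 of the 5 spanning transcripts. Here both directions occurred. Gained regions lay 44.8 and 65.2 kb upstream of MIR29B2, at chr1:207847292-207848893 in an intron and chr1:207867707-207869142 over an exon of the host. The second ended 25 and 28 bp from the furthest starts of transcripts that span the hairpins, at chr1:207869167 and chr1:207869170. The lost region chr1:207888094-207890374 lay 85.6 kb upstream of MIR29B2 and 9.0 kb upstream of the host gene's 5′ end. It overlapped an exon of CD34, which encodes a surface glycoprotein of blood progenitor and endothelial cells, 21028 bp from that gene's own start. CD34 was the sole protein-coding gene whose body touched a listed region near any member. No listed region other than these 3 lay within 500 kb of the pair.

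The miR-29 loci thus differed in count, with 20 gained and no lost regions at one and 2 gained and 1 lost at the other, although their mature strands share a seed. At MIR29A/MIR29B1 gained regions covered 18.9% of the window around MIR29A, and at MIR29B2/MIR29C 1.52% of that around MIR29B2. The lists hold no replicate values with which to test that difference.

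MIR221 and MIR222 lie on the minus strand of the X chromosome (chrX:45746157-45746266 and chrX:45747015-45747124), both in an intron of the single MIR222HG transcript that spans them. MIR222HG is their long noncoding host gene of 25.1 kb and begins 24.0 kb upstream of MIR221. Within 100 kb lay 16 gained regions and no lost region, and no lost region lay within 500 kb either. Upstream of MIR221 there were 13, from 9.2 to 58.3 kb, and downstream 3, from 31.4 to 35.4 kb. The host gene was touched by 7, 2 of them over an exon and 5 in the intron, and 9 were intergenic.

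The longest block at this locus crossed the start of MIR222HG. It joined 6 regions over 12.5 kb (chrX:45765372-45777870), and the region chrX:45769122-45771121 held the host's 5′ end at chrX:45770274. Its neighbours began 1153 bp inside the host and 848 bp before it, so that 3 gained regions lay within 2500 bp of the start. The remaining upstream regions lay as far as 34.2 kb before the host. The hairpins themselves sat in a gap of 40.7 kb between listed regions. In all, the 16 regions made 6 blocks and covered 34.1 kb.

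The RefSeq promoter of MIR222HG (chrX:45770218-45770517, minus strand) lies inside that gained region and is shown as the start of the transcript that carries both hairpins. It had a GC content of 54.7%, 11 CpG dinucleotides and no match to any of the 8 motifs searched.
MIR222HG: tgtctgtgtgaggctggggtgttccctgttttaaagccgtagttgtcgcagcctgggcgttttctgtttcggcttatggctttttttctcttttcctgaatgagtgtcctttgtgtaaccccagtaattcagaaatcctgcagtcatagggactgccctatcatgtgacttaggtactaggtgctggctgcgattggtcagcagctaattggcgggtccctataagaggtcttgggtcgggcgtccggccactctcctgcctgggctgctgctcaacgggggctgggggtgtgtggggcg
Elsewhere in the same region stand 2 matches, given in capitals on the plus strand, a TEAD core (CATTCC) at chrX:45769928-45769973 and an AP-1 motif at chrX:45770175-45770221.
TEAD match: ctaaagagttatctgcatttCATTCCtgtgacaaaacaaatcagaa
AP-1 match: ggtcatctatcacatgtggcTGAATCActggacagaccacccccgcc

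The 100 kb limit cut through the row of gained regions at this locus. The abutting regions chrX:45848109-45849607 and chrX:45849608-45851919 began 101.8 and 103.3 kb from MIR221 and were left out, whereas the region furthest inside lay 58.3 kb from MIR221. Over all 6 loci, the region furthest inside the limit was the lost one 86.2 kb from MIR29C.

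MIR21 (chr17:59841266-59841337, plus strand) lies at the 3′ end of VMP1, a protein-coding gene for an autophagy membrane protein, and the hairpin was exonic in all 10 spanning transcripts. One gained region, chr17:59853428-59855427, lay 12.1 kb downstream in intergenic sequence, and none had lost H3K27ac within 500 kb. VMP1 has start sites far upstream, 134 kb from the hairpin, and near it, 3315 bp away. Neither had a listed region within 2500 bp. The nearest to the VMP1 gene's 5′ end was gained and lay 37.2 kb before it (chr17:59668073-59670016). From the near start sites the gained region was 15.5 kb away. Widening the window to 250 kb raised the count at MIR21 from 1 to 6 gained regions, with still no lost region.

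MIR143 and MIR145 (chr5:149428918-149429023 and chr5:149430646-149430733, plus strand) lie in CARMN, a long noncoding RNA gene of cardiac and smooth muscle. MIR143 was exonic and MIR145 intronic in all 3 spanning transcripts. This was the locus with lost regions alone. One, chr5:149405685-149407996, covered the CARMN gene's 5′ end at chr5:149406689 and the starts of all spanning transcripts, 20.9 kb upstream of MIR143. The other, chr5:149451414-149454143, lay in intergenic sequence 20.7 kb downstream of MIR145. The hairpins sat in a gap of 43.4 kb between them. The first was also 1.48 kb from the start of IL17B, an interleukin gene singled out after its distance was seen, so the list does not tell which start the lost mark belonged to. The nearest gained region was 199.3 kb upstream of MIR143.

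The RefSeq promoter of CARMN (chr5:149406595-149406894, plus strand) fell inside the lost region and is shown as the start of the MIR143/MIR145 host. It held no match to the 8 motifs, 6 CpG dinucleotides and a GC content of 56.7%.
CARMN: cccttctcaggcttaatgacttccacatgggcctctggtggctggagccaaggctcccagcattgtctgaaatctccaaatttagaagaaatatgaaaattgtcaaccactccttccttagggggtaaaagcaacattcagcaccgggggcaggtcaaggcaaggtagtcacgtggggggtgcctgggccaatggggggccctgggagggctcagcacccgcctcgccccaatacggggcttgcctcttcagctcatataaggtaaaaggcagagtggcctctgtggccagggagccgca
The central 1000 bp of the same region held 3 matches to the NF-kB motif, the letters of 2 of which overlap, and none to the CArG box of serum response factor. The overlapping matches are shown by the first of them (chr5:149407103-149407152, plus strand).
NF-kB match: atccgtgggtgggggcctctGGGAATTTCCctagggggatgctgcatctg

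MIR214 (chr1:172138798-172138907, minus strand) is exonic in DNM3OS, a noncoding RNA antisense to DNM3 that also carries MIR199A2, 5628 bp from MIR214. MIR3120 overlaps MIR214 on the opposite strand. No listed region of either direction lay within 500 kb. The listed regions that flank the hairpin ended at chr1:171441801 and began at chr1:172939470, and the nearer to the DNM3OS start, a gained one, was 703 kb away. As no file gives the peaks that were tested, whether MIR214 had H3K27ac at all in these cells was not measured here.

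**Figure D2:**
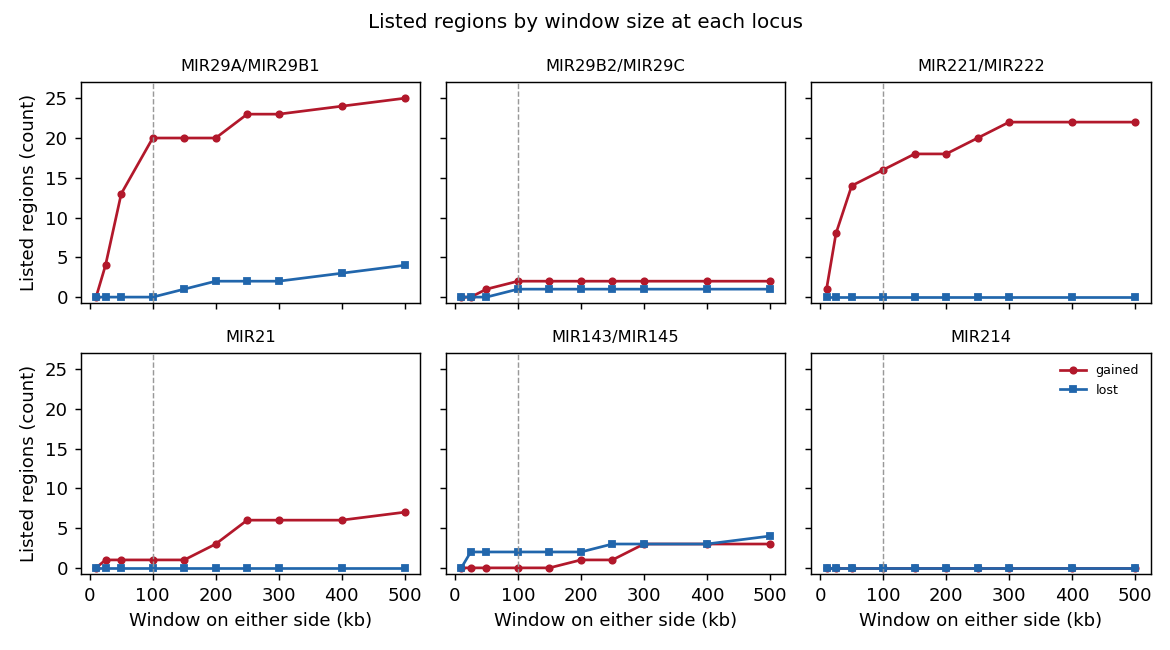
Number of gained (red) and lost (blue) regions within windows of 10 to 500 kb on either side of the hairpins, with 100 kb as a dashed line. At MIR29A/MIR29B1 the gained count was 4 at 25 kb, 20 at 100 kb and 25 at 500 kb, at MIR221/MIR222 it was 8, 16 and 22, and at MIR214 both counts were 0.

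The host starts fell into 3 kinds. A gained region covered the gene's 5′ end of LINC-PINT and MIR222HG, a lost region covered that of CARMN, and none lay within 2500 bp of those of MIR29B2CHG, VMP1 and DNM3OS. Counting the starts of all spanning transcripts instead added MIR29B2/MIR29C through the gained region 25 bp from a start, which made 4 loci in place of 3. The share of all microRNA hosts with such a region is not given here, so these counts have no background beside them. Of the 39 gained regions, 34 lay upstream and 5 downstream of the hairpin.

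Set beside all microRNA genes, MIR29A/MIR29B1 and MIR221/MIR222 stood at the far end of the counts. When hairpins within 10 kb were joined, 1564 loci remained, and these 2 had rank 1 and rank 3 by gained regions. The locus between them was MIR1469 with 17 gained and 2 lost regions (chr15:96333261-96333307), and no other locus had more than 8. Next came MIR548AQ with 8, then MIR6738, MIR614, MIR3129, MIR3193, MIR3619 and MIRLET7A3/MIR4763/MIRLET7B with 7 each. The order counts bins, so a wide peak counts more than once, and the 20 and 16 regions of these 2 loci made 8 and 6 blocks. Since the members were chosen with the lists known, this order describes them and supports nothing further.

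The remaining member loci had counts that many loci shared. MIR29B2/MIR29C was 1 of 99 loci with 2 gained regions and MIR21 1 of 260 with 1. MIR143/MIR145 and MIR214 were among 1126 loci with none. By lost regions, MIR143/MIR145 had 2, as had 73 loci in all, and the top of that order was MIR378G, MIR6740 and MIR8073 with 7 each. The 20 regions at MIR29A/MIR29B1 were 10.7% of the gained regions on chromosome 7, and the 16 at MIR221/MIR222 were 16.2% of those on chromosome X.

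**Figure D3:**
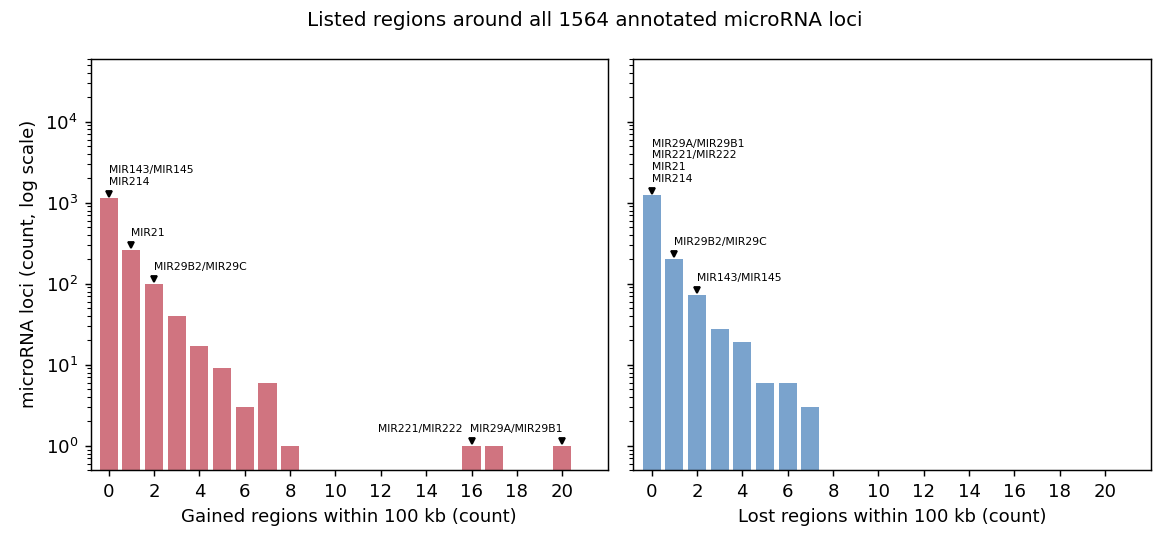
Number of microRNA loci (log scale) by the count of gained (left) or lost (right) regions within 100 kb, over 1564 loci. Triangles mark the 6 member loci: MIR29A/MIR29B1 (20) and MIR221/MIR222 (16) sit apart from the bulk on the left, and MIR143/MIR145 is at 2 on the right.

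A further list of 59 microRNA genes described in fibrosis was read beside the members. Of these, 18 had a gained region within 100 kb (30.5%) and 19 a lost one (32.2%), beside 26.6% and 20.6% of all microRNA genes, and 29 had neither. Gained regions alone were near 11 of the 59 and lost regions alone near 12. The most in the first group were 3, at MIR30A and MIR31, and no gene in the second had more than 2. MIR125B1 had 5 gained and 1 lost, MIR22 had 2 gained and 1 lost, and MIR132 and MIR212, which share a primary transcript, had 2 of each. None of the 59 had more than 5 gained regions. Neighbouring hairpins, such as MIR132 and MIR212, were counted as separate genes, so these shares do not stand for independent loci. The 19 matched genes of microRNA processing had 3 with a lost and 6 with a gained region within 100 kb of their 5′ end (15.8% and 31.6%, beside 20.4% and 29.5% of protein-coding genes). SRRT, a partner of the nuclear cap-binding complex, had 4 lost regions and XPO5, the exporter of hairpin precursors, 2 gained and 1 lost.

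The 39 gained regions at the member loci, 36 of them at MIR29A/MIR29B1 and MIR221/MIR222, were together wide and rich in A and T. Their median width was 2000 bp beside 1697 bp over all gained regions, and 20 of the 39 had exactly 2000 bp (51.3%), the typical bin of the study's division of broad peaks, beside 8.23% of all gained regions. Their median GC content was 41.2%, with 42.0% at MIR29A/MIR29B1 and 39.8% at MIR221/MIR222, beside 46.1% over all gained regions. At the other gained loci it was higher, at 54.1% in the 2 regions of MIR29B2/MIR29C (median width 1519 bp) and 48.4% in the 1 of MIR21. The ratio of observed to expected CpG had a median of 0.251 beside 0.247. Adjoining bins share a peak and are not independent of each other.

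The central 1000 bp of each region was searched on both strands for 8 motifs. These were the TEAD core CATTCC, AP-1 (TGANTCA), RUNX (TGTGGT), ATF4-C/EBP (TGATGCAA), ETS (CCGGAAGT), the SMAD palindrome GTCTAGAC, the CArG box and NF-kB. A TEAD core was present in 22 of the 39 gained regions at member loci (56.4%), beside 45.8% of all gained and 60.5% of all lost regions. RUNX matches were present in 23 (59.0%, beside 46.9% of all gained regions) and AP-1 matches in 14 (35.9%, beside 46.7%). None of the 39 held the ATF4-C/EBP motif, beside 8.17% of all gained regions, or the ETS motif, beside 6.29%. NF-kB matches stood in 5 (12.8%, beside 15.8%). By locus, the TEAD core stood in 11 of 20 regions at MIR29A/MIR29B1 and 10 of 16 at MIR221/MIR222. The contrasts with all gained regions depended on the window. In the central 500 bp the TEAD core stood in 25.6% of the member regions and 26.7% of all gained regions, and over whole regions in 87.2% and 58.8%. AP-1 matches stood in 25.6% and 28.6% in the central 500 bp, but in 56.4% and 53.6% over whole regions, whose widths differ. These shares were not tested.

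**Figure D4:**
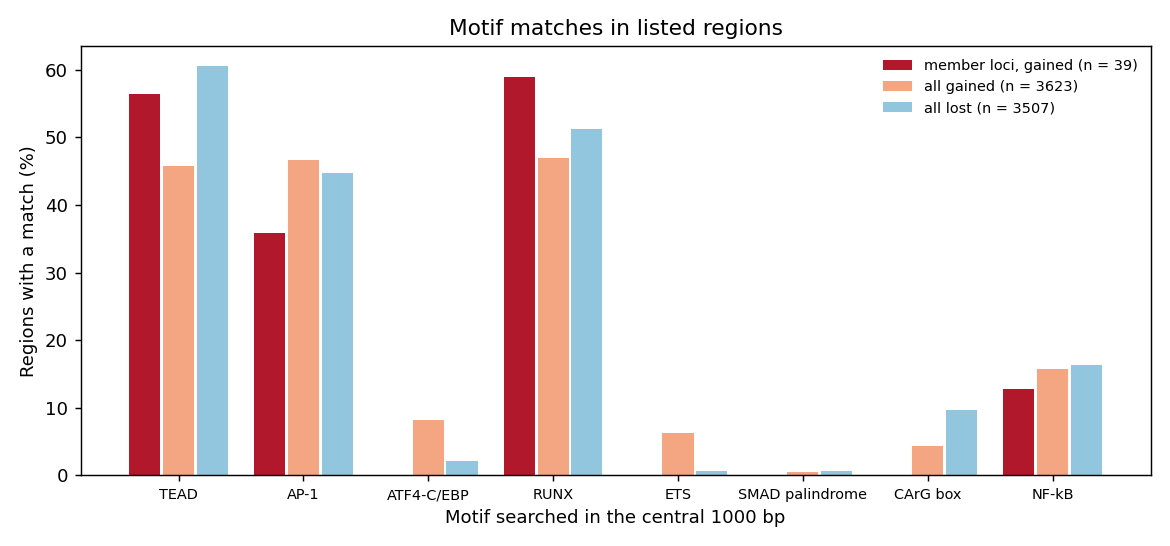
Percentage of regions with at least 1 match to each of 8 motifs in the central 1000 bp, for the 39 gained regions at member loci (red), all 3623 gained (orange) and all 3507 lost regions (light blue). TEAD and RUNX stand at 56.4% and 59.0% of the member regions, and ATF4-C/EBP, ETS, SMAD and CArG matches are at 0 there. The contrast with all gained regions nearly vanishes for TEAD in the central 500 bp and for AP-1 over whole regions.

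The lists also allow a view of the genes that miR-29 is known to restrain. Of 38 such genes, mostly of the extracellular matrix, 20 had a lost region within 100 kb of their 5′ end (52.6%) and 14 a gained one (36.8%), beside 20.4% and 29.5% of 20033 protein-coding genes. Lost regions alone were near 15, gained alone near 9, both near 5 and neither near 9. The list was chosen with these lists known and is not independent evidence of a direction. Lost regions were most numerous at the collagen IV genes COL4A1 and COL4A2, which are neighbours and share the same 7. COL1A2 and PDGFRB, the platelet-derived growth factor receptor of stellate cells, had 5 lost each and COL1A1 had 4 lost and 2 gained. COL5A1 had 4 lost, LOXL2, a collagen cross-linking enzyme, 4 lost and 1 gained, COL15A1 3 lost and 1 gained, and SERPINH1, the collagen chaperone, 3 lost. Gained regions prevailed at PDGFC, a growth factor gene with 9 gained and 1 lost, at COL6A3 with 5 and 1, and at COL5A2 with 4 and none.

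The site that the miR-29 seed pairs with, TGGTGCT, was present in the 3′UTR of the MANE Select transcript of 35 of the 38 genes (92.1%), beside 14.1% of 18780 such 3′UTRs. The genes had been listed as targets, so this share is a property of the list. Sites of 5 of them are shown, with 10 bases on either side, the pairing bases in capitals and hg38 positions of the stretch, so that they can be read against the seed of miR-29.
COL1A1 (chr17:50184563-50184589, minus strand): agggaatcacTGGTGCTatagaaattg
COL1A2 (chr7:94430903-94430929, plus strand): agaatgttgaTGGTGCTagaagaattt
COL4A1 (chr13:110150317-110150343, minus strand): tgtcacaacaTGGTGCTacttcttctt
COL5A1 (chr9:134843332-134843358, plus strand): caatgaaaatTGGTGCTtattttttac
PDGFC (chr4:156762137-156762163, minus strand): cattctcgtaTGGTGCTagagttagat
COL5A1 had 4 such sites, COL1A1, COL1A2, COL4A1 and PDGFC 1 each, and SERPINH1 none. Neither microRNA nor mRNA levels are in these lists, so changes at miR-29 loci and at target genes stand side by side without a measured link.

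**Figure D5:**
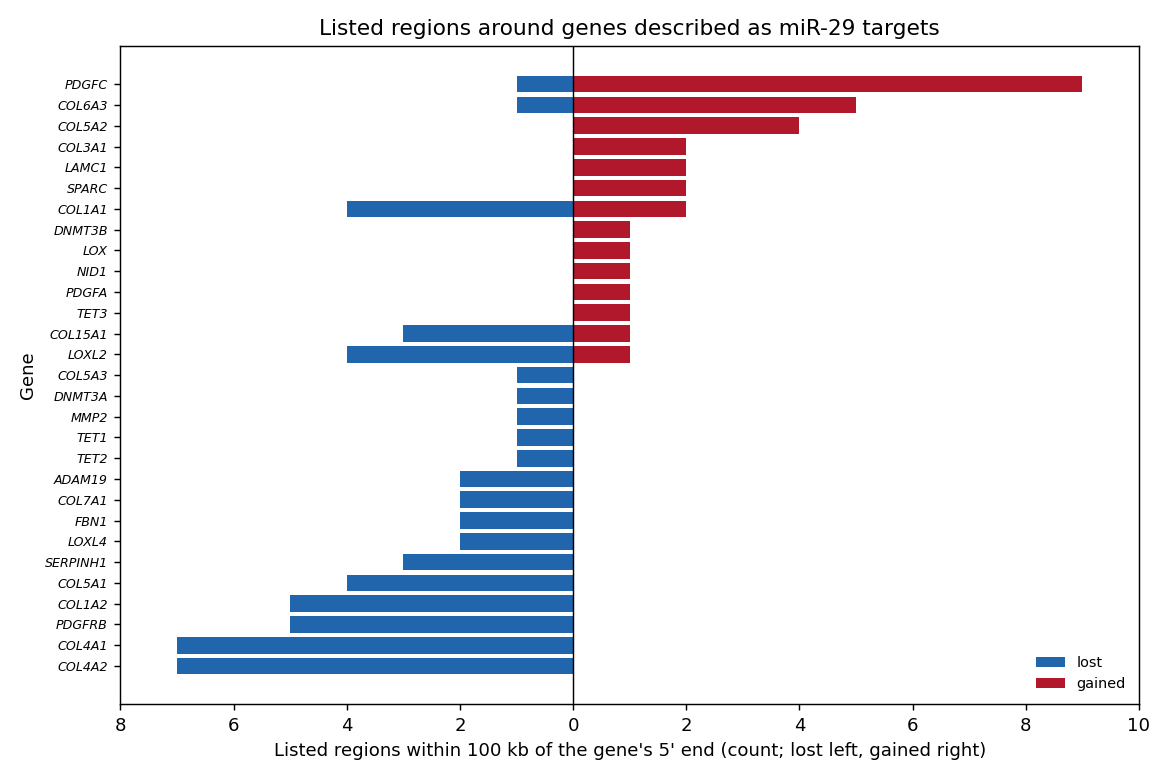
Lost (blue, left) and gained (red, right) regions within 100 kb of the 5′ end of the genes of the miR-29 target list that had at least 1. COL4A1 and COL4A2 have 7 lost regions and PDGFC 9 gained regions.

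Markers of cell types were read for context only. Listed regions lay within 2500 bp of the start of 4 of 8 stellate or myofibroblast markers (COL1A1, COL1A2, PDGFRB and TAGLN), all of them lost. None lay so near any of 6 markers of hepatocytes, endothelial or immune cells. COL3A1, ACTA2, LRAT and DCN had none so near either. No share over all genes is given for this window, so the contrast between the marker groups has no background beside it. Within 100 kb of the start, 5 of the 8 had a lost and 2 a gained region, beside 20.4% and 29.5% of protein-coding genes. The most were 5 lost, at COL1A2 and PDGFRB. COL3A1 went the other way, with 2 gained and none lost, COL1A1 had both, and LRAT and DCN had neither. Markers of other cell types had such regions too, with 6 lost at PTPRC, 3 lost at CDH5, 1 lost and 1 gained at PECAM1, 2 gained at APOA1 and none at ALB or HNF4A. Lists of changes alone cannot show whether a marker was active in either group.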

How the data were processed

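H3K27ac ChIP-seq was made from 4 control and 4 OSMI-1-treated LX-2 samples. Per the methods, the authors aligned the libraries to hg38 (Chromap), used MACS2 (2.1.1.20160309) on every library with input DNA as control, removed duplicates and blacklisted stretches, split peaks into bins of typically 2000 bp and tested bins between groups with MAnorm2. The deposited lists hold region positions in 3 columns and no score, fold or depth; the adjusted p threshold is 0.15 in their names and 0.05 in the methods, and the lists themselves do not settle which applies. Abutting bins were kept apart, and a wide peak therefore counts more than once.

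Members and lists were chosen with earlier results of these data known. Distances were taken with Python 3.11.15 and pandas 2.3.3 from GENCODE release 44 hairpins and same-strand spanning host genes; starts were counted from 1. Named genes were the members, their hosts, microRNA genes within 10 kb, coding genes under a region, the 5 most similar loci by each count with ties, and list genes with at least 3 regions. Counting was tested on simulated regions. Depth per sample is not in the lists, so no test, interval or floor was computed.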

Additional observations from a re-analysis of the deposited data

How the results depend on the processing

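Windows of 25 and 500 kb gave 13 and 59 gained regions in place of 39, and joining regions within 1000 bp left 16. Lost regions numbered 6 at 250 kb, 9 at 500 kb and 5 around the host 5′ end, in place of 3. Members with a lost region numbered 2 at both 25 and 50 kb, in place of 4. In the central 500 bp, TEAD, RUNX and NF-kB matches stood in 10, 12 and 2 of the 39 gained regions, in place of 22, 23 and 5 (25.6%, 30.8% and 5.13%, beside 26.7%, 26.9% and 8.34% of all gained regions). Over whole regions TEAD, AP-1 and NF-kB matches stood in 34, 22 and 8 (87.2%, 56.4% and 20.5%, beside 58.8%, 53.6% and 21.8%). The ATF4-C/EBP, ETS and CArG motifs, at 0 in the central 1000 bp, stood in 2, 1 and 3 whole regions. These were 5.13%, 2.56% and 7.69%, beside 10.1%, 6.71% and 7.76% of all gained regions. The contrast with all gained regions thus nearly vanished for TEAD at 500 bp and for AP-1 over whole regions. Of 51 alternative values 34 stayed within 1.5 times the reported one. No paired analysis was possible because only positions are given in the lists used here, with no value for a single sample. For the same reason leaving out a replicate was not run. The threshold of the lists is 0.15 by their names and 0.05 by the methods, and a stricter one was not analysed here. A count near a gene depends on how wide its peaks are, since each bin counts once.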
